A study of Homo sapiens with 6 samples.

Results

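The 8 genes described here encode surface molecules, a secreted lectin and an enzyme that restrain T cells, natural killer cells or phagocytes: CD274, PDCD1LG2, CD276, IDO1, LGALS9, CD47, PVR and NECTIN2. They were taken by symbol from a deposited table of 60671 genes, and all 8 had a row with a value above 0. The table holds 6 libraries of HaCaT, labelled wild type, a spontaneously immortalised line grown from adult human skin keratinocytes. In 3 libraries the cells had been kept for 24 h in serum-free high-glucose medium containing 160 ng/mL of the type I interferon IFN-beta. In the 3 control libraries they had been kept as long in that medium without it. The comparison addresses how a keratinocyte exposed to a type I interferon changes the transcripts through which it can dampen immune cells. Nothing in the labels ties the replicates to separate cultures, and p-values therefore reflect the spread among the libraries alone, which may be technical. HaCaT is a single line, so the values describe that line.

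T cells are switched on through their antigen receptor and are held back by inhibitory receptors, the checkpoints, that bind ligands on the cells they touch. CD274 (PD-L1) and PDCD1LG2 (PD-L2) are ligands of the receptor PD-1, CD276 (B7-H3) is a relative of both in the B7 family, and LGALS9 encodes galectin-9, a sugar-binding protein that binds the receptor TIM-3. IDO1 is not a ligand but a cytosolic enzyme that opens the ring of tryptophan and so starves T cells of it and yields kynurenine. CD47 binds SIRPA on macrophages and restrains phagocytosis, and PVR and NECTIN2 are adhesion molecules bound by the inhibitory receptor TIGIT and the activating receptor CD226. In skin, PD-L1 and IDO1 on keratinocytes are known to be induced by interferons.

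Levels are in FPKM (fragments corrected for the length of a gene and the size of a library), as deposited by the authors. Whole reads were recovered from the steps of these values, and the libraries held between 25832158 and 30594527 reads. A gene's reads are the smallest whole numbers that fit its FPKM, so for single genes true numbers may be a multiple of those given. Summed over genes, the recovered reads came to between 99.84% and 99.88% of the library totals. The cells carried keratinocyte transcripts: all 10 markers on that list were measured, with a summed level of 3839 to 4154 FPKM in control and 3914 to 3982 FPKM in IFN-beta libraries. Of these markers 6 rose, among them TP63 (0.41 on the log2 scale) and KRT17 (0.37), and 1 fell, KRT5, from 1374 ± 81.0 to 964.5 ± 14.8 FPKM (-0.51, SD, n = 3 each). The interferon response was present in each treated library, with MX1, an antiviral GTPase, at 666.5 to 697.2 FPKM against 4.36 to 4.77 FPKM in control. Of the 15163 genes with a mean of at least 0.5 FPKM, 42.4% passed the test described next, 22.5% higher and 19.9% lower with IFN-beta. Higher genes made up 53.2% of the calls, 63.2% when every library was rescaled to 1 sum and 41.3% under quantile normalization.

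All 8 genes were higher with IFN-beta, and in none of them did the groups overlap, but the sizes fell far apart. IDO1, LGALS9, CD274 and PDCD1LG2 rose by 3.84, 2.91, 2.11 and 1.88 on the log2 scale. NECTIN2, CD47, PVR and CD276 rose by 0.55, 0.46, 0.46 and 0.37. The test was limma on log2(FPKM + 0.5), called at an adjusted p of 0.05 over all genes tested, a scale on which the changes of low genes come out too small. IDO1 and PDCD1LG2 passed the filter on level only through the treated libraries, so the count that bears on the genes is the one without a filter: there 8 of 8 were called, against 18.1% of 30507 genes in either direction and 10.2% higher. Over the same 30507 genes, groups did not overlap in 32.6%, and 18.1% had all treated libraries above all controls. A called rise of at least 2-fold, reached by 4 of the 8 genes, was reached by 1.49% of them, and one of at least 4-fold, reached by IDO1, LGALS9 and CD274, by 0.393%. These folds are on the log2(FPKM + 0.5) scale. By ratio of means PDCD1LG2 rose 7.46-fold, more than CD274 at 5.16-fold. In bulk libraries, more cells with a transcript and more transcript per cell cannot be told apart.

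**Figure D1:**
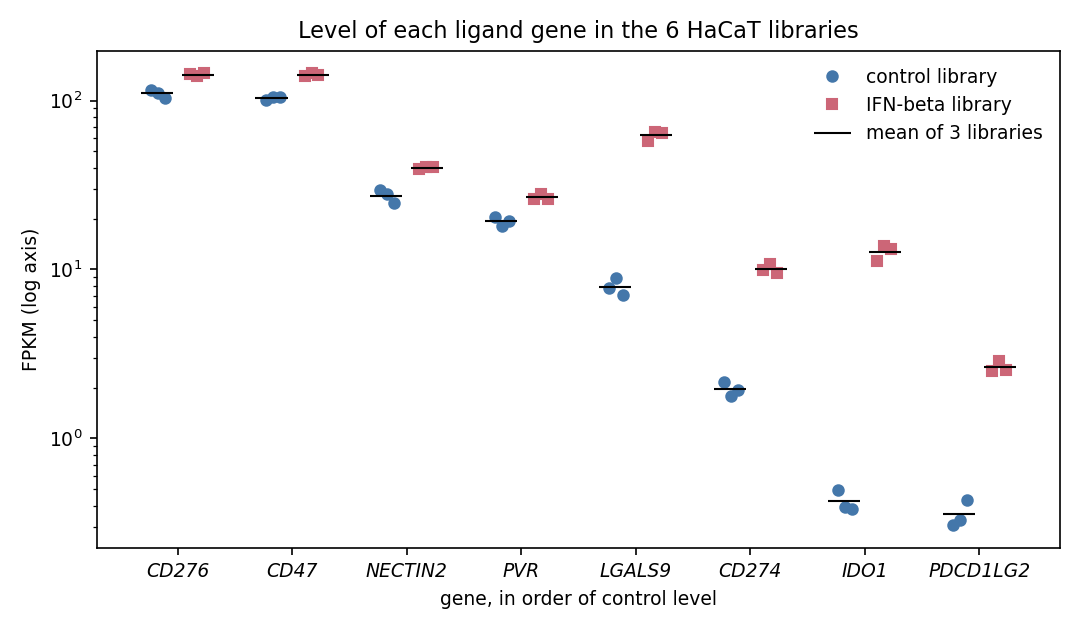
FPKM on a log axis for the 8 genes (called ligand genes in the plot, IDO1 included), ordered by control level, with circles for the 3 control libraries, squares for the 3 IFN-beta libraries and lines for the means. The treated libraries lie above the controls for each gene, from 2.52 to 2.86 against 0.306 to 0.430 FPKM for PDCD1LG2 and from 139 to 145 against 103.8 to 116 FPKM for CD276.

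CD274, the main PD-1 ligand of non-immune cells, was measured at 2.17, 1.78 and 1.93 FPKM in control replicates 1 to 3 and at 9.92, 10.8 and 9.55 FPKM in IFN-beta replicates 1 to 3. The lowest treated library thus stood well above the highest control. The mean went from 1.96 ± 0.198 to 10.1 ± 0.668 FPKM (SD, n = 3 each), a 5.16-fold ratio of means and a log2 change of 2.11 ± 0.091 (SE, limma adjusted p = 3.53e-07). Between 87 and 112 reads per control library and between 503 and 522 per treated library lay behind these values. CD274 held rank 115 among the changes of the 15163 genes, counted from the largest rise, and its level moved from percentile 23.1 to percentile 46.6 of the genes tested. Its coordinates are chromosome 9, 5450503 to 5470566, in the deposited table.

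The sequence before the start of CD274 is shown because it holds motifs that interferon-activated factors are known to bind. RefSeq (GRCh38.p14) gives 250 bases before to 50 after the start, chr9:5450292-5450591 on the plus strand, where capitals mark matches to the core of the interferon-stimulated response element (ISRE, GAAA and again GAAA with any 2 bases between them) and to the gamma-activated sequence (GAS, TTCNNNGAA), on either strand.
CD274: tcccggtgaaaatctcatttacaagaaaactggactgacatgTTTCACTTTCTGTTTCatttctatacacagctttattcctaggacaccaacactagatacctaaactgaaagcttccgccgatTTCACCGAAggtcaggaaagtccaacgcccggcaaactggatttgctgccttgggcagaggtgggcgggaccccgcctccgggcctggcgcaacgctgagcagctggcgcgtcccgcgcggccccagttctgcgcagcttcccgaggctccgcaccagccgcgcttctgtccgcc
The first run of capitals holds overlapping ISRE cores on the minus strand, which read GAAAGTGAAA (208 to 199 bases before the start) and GAAACAGAAA (202 to 193 bases before it). The second is a GAS match, TTCACCGAA, 125 to 117 bases before the start. An ISRE core was found in 3.57% of all 35116 RefSeq promoters of this length and a GAS match in 7.66%. A match describes letters in this window and is not a measured binding site.

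PDCD1LG2, the second PD-1 ligand, had the lowest mean of the 8 genes in both groups, though in control its libraries overlapped with those of IDO1. It was measured at 0.306, 0.329 and 0.430 FPKM in control and at 2.52, 2.86 and 2.55 FPKM in IFN-beta replicates 1 to 3. Every treated library was above 2.5 FPKM and every control below 0.5 FPKM. The mean went from 0.355 ± 0.0659 to 2.65 ± 0.188 FPKM (SD, n = 3 each), a 7.46-fold ratio of means. Because the control level lies under the pseudocount, the log2 change of 1.88 ± 0.131 (SE, limma adjusted p = 8.40e-06) is smaller than that ratio, and limma voom on the recovered reads gave 2.89. The depth was 22 to 27 reads per control library and 185 to 190 per treated library, where 3 reads correspond to at most 0.0478 FPKM.

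CD274 and PDCD1LG2 lie next to each other on chromosome 9, with 40.0 kb between the end of CD274 and the start of PDCD1LG2 (5510531 to 5571282). CD274 stood above PDCD1LG2 in every library, by 7.10, 5.40 and 4.49 times in control and by 3.93, 3.79 and 3.74 times in IFN-beta replicates 1 to 3. The neighbours moved less and not in 1 direction. RIC1, the next tested gene beyond PDCD1LG2, went from 6.45 ± 0.471 to 8.70 ± 0.418 FPKM (SD, n = 3 each), which is 0.41 ± 0.075 on the log2 scale (SE, limma adjusted p = 0.00254). ERMP1, further along, fell from 31.9 ± 1.10 to 22.7 ± 0.827 FPKM (-0.48 ± 0.048, limma adjusted p = 8.23e-05). On the other side PLGRKT, a plasminogen receptor gene, went from 16.0 ± 1.57 to 12.9 ± 1.50 FPKM (-0.31 ± 0.096 on the log2 scale, limma adjusted p = 0.0299). PLGRKT no longer passed when control replicate 1 or 3 was dropped (limma adjusted p = 0.0568 and 0.0803), when IFN-beta replicate 2 was dropped (0.0908), without the filter on level (0.0916) and in eBayes without trend (0.0672). JAK2, a Janus kinase gene, went from 2.01 ± 0.415 to 2.94 ± 0.120 FPKM (0.46 ± 0.131 on the log2 scale, limma adjusted p = 0.0195). JAK2 no longer passed when control replicate 1 (limma adjusted p = 0.0563), IFN-beta replicate 1 (0.0599) or IFN-beta replicate 2 (0.0561) was dropped, without the filter on level (0.0733) and under quantile normalization (0.0541). The noncoding gene AL162253.2, whose row spans part of CD274 and all of PDCD1LG2, stood at 0.958 ± 0.151 and 0.576 ± 0.137 FPKM and did not pass (log2 change -0.44 ± 0.165, limma adjusted p = 0.0585), but did under quantile normalization (-0.56, limma adjusted p = 0.0231), in eBayes without trend (0.0308) and with limma voom (-0.73, adjusted p = 0.0376). RLN2 did not pass at -0.26 (limma adjusted p = 0.161), but did in eBayes without trend (0.0381), and its change reached -0.40 among the alternatives. KIAA2026 did not pass at -0.05 (limma adjusted p = 0.651), and its sign turned without control replicate 2 (0.01). The use of strand in the counting is not given in the sources used here. The pseudogenes AL135786.1 and RNF152P1 and the noncoding genes AL162253.1 and AL136980.1, which complete the nearest rows, were under the filter on level.

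**Figure D2:**
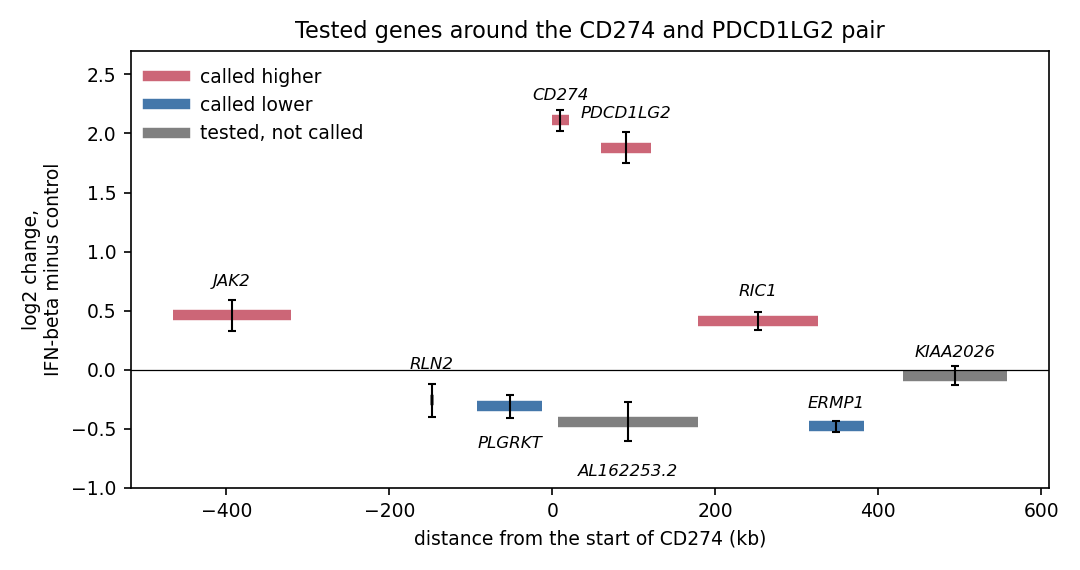
Log2 change with IFN-beta (vertical axis, error bars are SE) against distance from the start of CD274 in kb for the tested genes nearest to the CD274 and PDCD1LG2 pair, with each gene drawn over its length. The pair stands at 2.11 and 1.88 and its 7 tested neighbours between -0.48 and 0.46.

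IDO1 had the largest rise of the 8 genes. It was measured at 0.497, 0.392 and 0.380 FPKM in control and at 11.3, 13.7 and 13.3 FPKM in IFN-beta replicates 1 to 3. In reads this was 15, 12 and 10 against 348, 370 and 414, so the groups lay far apart although the control level rests on few reads. The mean went from 0.423 ± 0.0646 to 12.7 ± 1.26 FPKM (SD, n = 3 each), a 30.1-fold ratio of means. The log2 change was 3.84 ± 0.107 (SE, limma adjusted p = 1.40e-08). Its coordinates are chromosome 8, 39902275 to 39928790. In the GENCODE release 29 annotation 3.68% of its exonic bases are shared with a gene on the opposite strand.

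Around IDO1, 11 of the 16 other listed genes of tryptophan use and the kynurenine pathway were tested, of which 4 rose and 4 fell, with a median log2 change of -0.12 against 0.01 over all genes tested. Over all genes tested 22.5% were higher and 19.9% lower. Without control replicate 2 the 8 calls became 5, with 4 higher and 1 lower. Without the filter on level 4 were higher and 2 lower of 15, against 10.2% higher and 18.1% in either direction of 30507 genes. WARS1, the tryptophanyl-tRNA synthetase, rose from 169.4 ± 9.04 to 623 ± 40.1 FPKM (1.87 ± 0.056 on the log2 scale, limma adjusted p = 2.42e-08). IL4I1, a secreted amino acid oxidase that also consumes tryptophan, rose from 1.53 ± 0.389 to 5.04 ± 0.326 FPKM (1.46 ± 0.143, limma adjusted p = 7.00e-05). The kynurenine-processing enzymes KMO and KYNU rose by 0.60 and 0.59, to levels of 2.77 ± 0.488 and 1.25 ± 0.124 FPKM, and the change of KYNU reached up to 0.90 among the alternatives. The aminotransferases KYAT3 and AADAT had log2 changes of -0.12 and -0.17 and did not pass (limma adjusted p = 0.150 and 0.152). IDO2, the paralog of IDO1, was listed at 0 in each control library and at 0.0141, 0 and 0.0139 FPKM in the treated ones. The tryptophan-consuming gene TDO2 stood at 0.907 ± 0.106 and 1.25 ± 0.0846 FPKM and did not pass (limma adjusted p = 0.083), but did in eBayes without trend (0.32 on the log2 scale, limma adjusted p = 0.017). Of the genes that open the tryptophan ring, IDO1 thus had the highest level in treated libraries and TDO2 the highest in control libraries.

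LGALS9 was measured at 7.75, 8.88 and 7.05 FPKM in control and at 57.6, 65.1 and 64.3 FPKM in IFN-beta replicates 1 to 3. All treated libraries lay above 50 FPKM and all controls below 10 FPKM. The mean went from 7.90 ± 0.924 to 62.3 ± 4.13 FPKM (SD, n = 3 each), a 7.89-fold ratio of means and a log2 change of 2.91 ± 0.083 (SE, limma adjusted p = 1.63e-08). It rested on 216 to 316 reads per control and 2051 to 2332 reads per treated library. LGALS9 added 54.4 FPKM, the largest absolute gain of the 8 genes, and lies on chromosome 17 from 27629798 to 27649560.

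The RefSeq promoter of LGALS9 (GRCh38.p14, chr17:27630938-27631237, plus strand) is shown because it is the other promoter of the 8 genes in which an ISRE core was found, and that of CD47 (chr3:108090982-108091281, minus strand) to show a window with none. Capitals mark the match.
LGALS9: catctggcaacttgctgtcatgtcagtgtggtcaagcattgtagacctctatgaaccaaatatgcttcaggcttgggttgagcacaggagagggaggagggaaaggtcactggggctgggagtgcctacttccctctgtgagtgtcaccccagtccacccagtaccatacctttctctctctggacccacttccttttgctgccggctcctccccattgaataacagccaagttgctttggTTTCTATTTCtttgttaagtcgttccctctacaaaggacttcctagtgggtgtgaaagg
CD47: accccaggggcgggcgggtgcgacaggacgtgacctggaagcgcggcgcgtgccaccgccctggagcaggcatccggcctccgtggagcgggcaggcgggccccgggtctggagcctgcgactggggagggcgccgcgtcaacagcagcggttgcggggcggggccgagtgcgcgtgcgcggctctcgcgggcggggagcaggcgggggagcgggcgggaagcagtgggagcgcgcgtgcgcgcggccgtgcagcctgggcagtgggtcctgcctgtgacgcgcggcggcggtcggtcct
The LGALS9 match reads GAAATAGAAA on the minus strand and runs from 9 bases before the start to the start itself. That RefSeq start lies inside the deposited coordinates of LGALS9, which begin further upstream at 27629798, so the distance holds for that start only. The RefSeq table held promoters for 6 of the 8 genes (CD274, CD276, LGALS9, CD47, PVR and NECTIN2). Neither motif was found in the windows of CD276, CD47, PVR or NECTIN2. Among genes called at least 4-fold higher, 45 of 111 promoters, or 40.54%, held an ISRE core, against 3.07% of the 14573 promoters of tested genes. A GAS match was held by 17.12%, against 6.17%. Those genes were picked by their change in these same data, and CD274 and LGALS9 are among them. Whether the motifs bear on which of the 8 genes rose most was not tested. The longer form, which goes on with CT after the core, was found in 0.27% of all promoters, in 18.02% of those of genes called at least 4-fold higher and in none of the windows of the 6 genes.

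Reads of LGALS9 can be confused with those of its copies, and 5.15% of its exonic bases are shared with AC015688.4 on the same strand. Of the 50-base windows of its GENCODE transcripts 13.15% also occur in transcripts of other genes, 6.95% in LGALS9C and 3.62% in LGALS9B. The copies were low, with 1 to 6 reads per control library and 12 to 28 reads per treated library for either of them. Their summed FPKM came to 2.92% ± 0.865 of that of LGALS9 in control and 2.02% ± 0.391 in IFN-beta libraries (SD, n = 3 each). With both copies added, an alternative chosen after seeing the data, the log2 change of LGALS9 was 2.90. The list of other galectins also holds LGALS3BP, which is not itself a galectin. Of the 11 listed genes 5 were tested, with 2 higher (LGALS3BP and LGALS8) and 3 lower (22.5% and 19.9% over all genes tested). Without the filter on level it was 4 higher and 2 lower of 9, against 10.2% higher and 18.1% in either direction of 30507 genes. With values rescaled to 1 sum it was 2 higher and 2 lower. LGALS3BP, a secreted partner of galectin-3, rose from 173.6 ± 15.6 to 549 ± 11.8 FPKM (1.66 ± 0.061 on the log2 scale, limma adjusted p = 1.06e-07), and LGALS8 rose by 0.39. LGALS1, itself known to restrain T cells, fell from 104.1 ± 0.324 to 74.2 ± 2.46 FPKM (-0.49 ± 0.037 on the log2 scale, limma adjusted p = 1.63e-05). LGALS7B fell by 0.51 on the log2 scale, at a level that is uncertain because LGALS7 is a near-identical copy.

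CD276 and CD47 were the most abundant of the 8 genes in both groups, and their means rose 1.29-fold and 1.38-fold. CD276 was measured at 116, 110.9 and 103.8 FPKM in control and at 142.9, 139.1 and 145.0 FPKM in IFN-beta replicates 1 to 3. The highest control lay below the lowest treated library. The mean went from 110.2 ± 6.07 to 142.3 ± 2.97 FPKM (SD, n = 3 each), and its log2 change was 0.37 ± 0.046 (SE, limma adjusted p = 2.78e-04). CD47 was measured at 100.5, 104.6 and 105.5 FPKM in control and at 140.6, 145.0 and 141.7 FPKM in IFN-beta replicates 1 to 3. Its libraries were the tightest of the 8 genes, with a coefficient of variation of 2.58% in control and 1.60% in treated libraries. The mean went from 103.5 ± 2.67 to 142.4 ± 2.28 FPKM, or 0.46 ± 0.036 on the log2 scale (SE, limma adjusted p = 1.79e-05). Both genes were read deeply, with 3411 to 5641 reads per library for CD276 and 6852 to 10897 for CD47. CD276 lies on chromosome 15 from 73683966 to 73714514 and CD47 on chromosome 3 from 108043091 to 108091862.

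Of the 10 other listed genes of CD47 maturation, of its partners and of phagocytosis 7 were tested, with 3 higher and 2 lower. It was 4 higher and 1 lower with values rescaled to 1 sum. Without the filter on level it was 3 higher and 1 lower of 8, against 10.2% higher and 18.1% in either direction of 30507 genes. Over all genes tested 22.5% were higher and 19.9% lower. THBS1, a matrix protein that binds CD47, rose from 485.9 ± 63.2 to 772 ± 23.7 FPKM (0.68 ± 0.080 on the log2 scale, limma adjusted p = 2.16e-04). CALR, a chaperone that acts as a signal for engulfment when exposed at the cell surface, rose by 0.44, to 1393 ± 39.8 FPKM. B2M, the light chain of MHC class I, rose by 1.24, and the integrin chain ITGAV fell by 0.37 on the log2 scale. QPCTL, the cyclase that modifies the amino terminus of CD47 for SIRPA binding, stood at 5.67 ± 0.286 and 6.25 ± 0.568 FPKM and did not pass (limma adjusted p = 0.264). UBQLN1, a chaperone that binds CD47, did not pass at 0.07 (limma adjusted p = 0.125), but did with values rescaled to 1 sum (0.12, limma adjusted p = 0.0223).

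PVR and NECTIN2, which share receptors on natural killer and T cells, rose by 0.46 and 0.55 on the log2 scale, which are 1.39-fold and 1.46-fold ratios of means. PVR was measured at 20.4, 18.0 and 19.4 FPKM in control and at 26.1, 27.9 and 26.3 FPKM in IFN-beta replicates 1 to 3. NECTIN2 was measured at 29.4, 28.0 and 24.6 FPKM in control and at 39.1, 40.6 and 40.4 FPKM in IFN-beta replicates 1 to 3. Treated and control libraries were separate for both, and the control libraries of NECTIN2 were the more spread. The mean of PVR went from 19.3 ± 1.19 to 26.8 ± 0.993 FPKM (SD, n = 3 each), and its log2 change was 0.46 ± 0.057 (SE, limma adjusted p = 2.71e-04). That of NECTIN2 went from 27.3 ± 2.49 to 40.0 ± 0.798 FPKM (SD, n = 3 each), and its log2 change was 0.55 ± 0.064 (SE, limma adjusted p = 2.10e-04). The ratio of NECTIN2 to PVR was 1.44, 1.55 and 1.27 in control and 1.50, 1.45 and 1.53 in treated libraries, so it overlapped between the groups. Both lie on chromosome 19, PVR from 44643798 to 44666162 and NECTIN2 from 44846175 to 44889223. Shared exonic bases came to 3.44% for PVR on the same strand, with CEACAM19, and to 3.42% for NECTIN2 on the opposite strand.

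The remaining nectins and nectin-like genes had smaller changes, with a median log2 change of -0.04 over 6 tested of 9 listed. CADM1 (0.26) and AFDN (-0.17), an adaptor that links nectins to actin, passed, which is 33.3% of the 6 tested against 42.4% of all genes tested. CADM1 kept its call in 8 of 17 alternatives and AFDN in 12 of 17, and CADM1 lost it whenever a single library was left out. The list's count was 0 without control replicate 1 or 2 and without IFN-beta replicate 1 or 3. The count was 1 without IFN-beta replicate 2, with the replicate block, without the filter on level, with quantile normalization and with values rescaled to 1 sum. NECTIN1, the most abundant of them, stood at 211.1 ± 25.3 and 184.9 ± 5.24 FPKM and did not pass (log2 change -0.18, limma adjusted p = 0.0833), but did without control replicate 3 (-0.28, limma adjusted p = 0.00153) and with limma voom (-0.19, adjusted p = 0.0227). NECTIN4, at 0.07, did not pass either (limma adjusted p = 0.496).

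The order of levels changed in the middle of the list. In control libraries it ran CD276, CD47, NECTIN2, PVR, LGALS9, CD274, IDO1 and PDCD1LG2 by mean FPKM, and neighbours overlapped in range only for CD276 with CD47 and for IDO1 with PDCD1LG2. In IFN-beta libraries CD47 and CD276 still overlapped at the top, LGALS9 had passed NECTIN2 and PVR, and IDO1 had passed CD274. All neighbours other than CD47 and CD276 were then apart in range, with the least separated means those of IDO1 and CD274, at a ratio of 1.26. The summed FPKM of the 8 genes went from 271.0 ± 7.09 to 439 ± 8.19 (SD, n = 3 each). CD47 and CD276 held 78.9% ± 0.713 of that sum in control and 64.8% ± 1.05 in IFN-beta libraries.

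**Figure D3:**
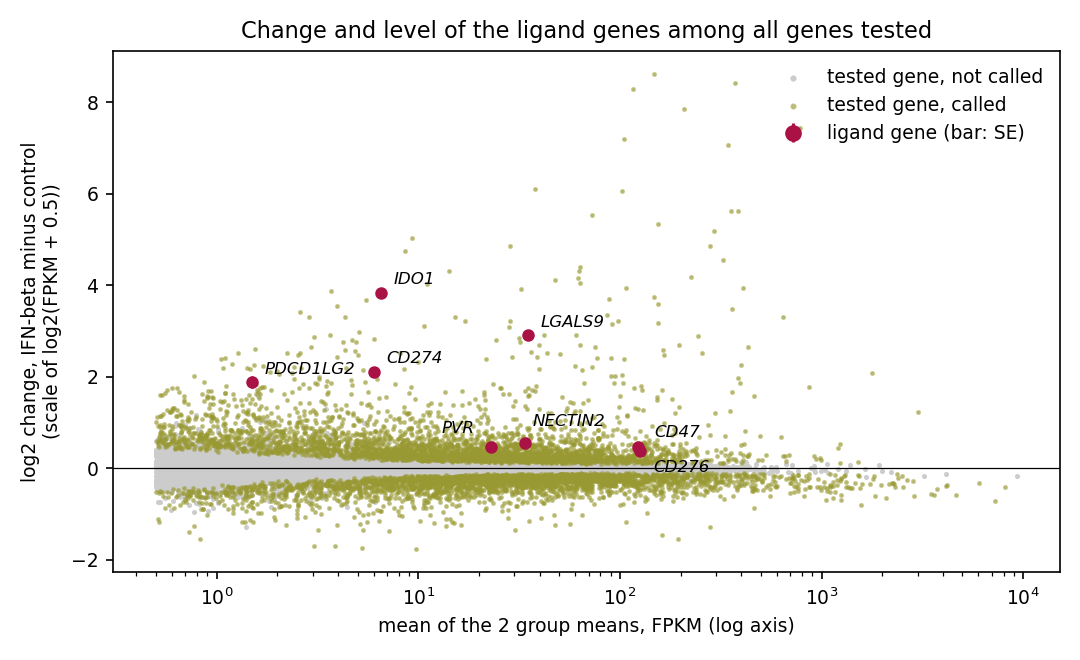
Log2 change with IFN-beta (vertical axis) against the mean of both group means in FPKM (log axis) for the 15163 genes tested, with the 8 ligand genes named and their SE as bars, which are shorter than the symbols for some. IDO1, LGALS9, CD274 and PDCD1LG2 lie between 1.88 and 3.84, and the 4 genes that were most abundant in control lie between 0.37 and 0.55.

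Each of the 4 genes that changed at least 2-fold was set beside the tested genes with the nearest profile, measured as the Euclidean distance between log2(FPKM + 0.5) values over the 6 libraries after centring on the control mean. Nearest to CD274 were KLHDC7B (distance 0.189, log2 change 2.16), TRIM69 (0.210, 2.14) and STAT5A (0.211, 2.07). KLHDC7B and STAT5A had control levels under the pseudocount, 0.223 ± 0.0569 and 0.477 ± 0.116 FPKM, and the change of KLHDC7B reached 3.59 among the alternatives. Nearest to PDCD1LG2 were SIDT1 (0.155, 1.91), the antibody receptor TRIM21 (0.198, 1.87) and the aminopeptidase LAP3 (0.209, 1.87). Nearest to LGALS9 were the complement protease C1S (0.106, 2.91), HELZ2 (0.228, 2.92) and the thymidine phosphorylase TYMP (0.234, 2.80). Nearest to IDO1 were IFI35 (0.201, 3.74), DDX60L (0.295, 3.93) and IFIT3 (0.373, 3.93). The distance compares changes on the log2(FPKM + 0.5) scale and not levels. C1S went from 9.50 ± 0.691 to 74.7 ± 4.68 FPKM, against 7.90 and 62.3 FPKM for LGALS9. IFIT3 reached 766 ± 19.8 FPKM against 12.7 ± 1.26 FPKM for IDO1. As changes of low genes come out too small on that scale, nearness to IDO1 or PDCD1LG2 does not mean a like ratio of means. The ratio was 30.1 for IDO1, whose nearest gene IFI35 went from 20.1 ± 1.28 to 275.1 ± 14.9 FPKM. It was 7.46 for PDCD1LG2, while TRIM21 went from 28.3 ± 0.829 to 104.4 ± 3.55 FPKM.

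The ontology terms deposited with the table link some of the genes. The term for negative regulation of T cell proliferation was carried by CD274, PDCD1LG2 and IDO1, and by 21 of the 11769 tested genes with any term. CD274, PDCD1LG2 and LGALS9 carried that for negative regulation of interferon-gamma production, with 22 genes in all. Terms of the opposite sense were also shared: positive regulation of T cell proliferation by CD274, PDCD1LG2 and CD276 (35 genes in all), T cell costimulation by CD274 and PDCD1LG2 (23) and positive regulation of interferon-gamma production by CD276 and LGALS9 (42). PVR and NECTIN2 shared the term for susceptibility to natural killer cell mediated cytotoxicity, with 3 genes in all, and the term for virus receptor activity, with 49.

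Of 28 other listed surface genes of the B7, butyrophilin, tumour necrosis factor (TNF) and related families, 17 were tested, with a median log2 change of 0.70. Of these, 13 were higher and 1 lower, against 22.5% higher and 19.9% lower over all genes tested. The list is not limited to inhibitory genes. CD40, CD70, TNFSF9, TNFSF18 and TNFRSF14, of the TNF ligand and receptor families, were among the 13 higher. The gene lower was CD24, which went from 314.5 ± 5.47 to 239.3 ± 10.3 FPKM (-0.39 ± 0.041, limma adjusted p = 9.46e-05). Without the filter on level it was 13 higher and 1 lower of 25, against 10.2% higher of 30507 genes. CEACAM1, an adhesion molecule that binds TIM-3 and itself, rose from 2.78 ± 0.139 to 14.2 ± 0.293 FPKM (2.17 ± 0.068 on the log2 scale, limma adjusted p = 3.34e-08), against 2.11 for CD274. HLA-E, the ligand of the inhibitory receptor NKG2A, rose from 111.5 ± 5.92 to 283.0 ± 12.7 FPKM (1.34 ± 0.050, limma adjusted p = 1.25e-07), and the butyrophilin BTN3A3 rose by 1.35. HLA and butyrophilin genes resemble their relatives, so single levels are uncertain. TNFSF18 rose by 1.47 from a control level of 0.226 ± 0.0797 FPKM, and by 2.76 with limma voom on the recovered reads. It passed the filter on level only through the treated libraries. VSIR and CD58 had log2 changes of 0.13 and 0.07 and did not pass (limma adjusted p = 0.257 and 0.382). The costimulatory ligand CD80 was listed at 0 in every library. CD86, its partner, stood at 1.21 ± 0.264 and 1.44 ± 0.108 FPKM and did not pass (limma adjusted p = 0.322).

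Genes listed for the stability and trafficking of the PD-L1 protein were called in both directions, at a share near that of all genes. Of 19 tested 4 rose and 5 fell, with a median of -0.05, which is 47.4% called against 42.4% of all genes tested. With values rescaled to 1 sum 6 were higher and 3 lower. CMTM6, a membrane protein that keeps PD-L1 from being degraded, fell from 82.1 ± 4.58 to 68.0 ± 1.48 FPKM (-0.27 ± 0.047 on the log2 scale, limma adjusted p = 0.00192). COPS5, a deubiquitinase subunit that stabilises PD-L1, fell by 0.27 on the log2 scale as well (limma adjusted p = 0.00762). B3GNT3, a glycosyltransferase that acts on PD-L1, rose from 9.36 ± 0.586 to 14.6 ± 0.473 FPKM (0.62 ± 0.063 on the log2 scale, limma adjusted p = 9.07e-05). CMTM3, a relative of CMTM6 on that list, rose by 0.57, and whether it acts on PD-L1 was not tested. OTUB1 and STT3B had log2 changes of 0.01 and -0.06 and did not pass (limma adjusted p = 0.878 and 0.241), and the sign of OTUB1 was negative in 6 of 17 alternatives. PD-L1 protein was not measured here.

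Receptors for these ligands were mostly at or near 0, as were leukocyte markers. Of 19 listed receptor genes 2 were tested, and without the filter on level 2 of 13 were called higher, against 10.2% of 30507 genes. SIRPA, the receptor of CD47, stood at 2.31 ± 0.434 and 2.82 ± 0.178 FPKM and did not pass (log2 change 0.25 ± 0.126, limma adjusted p = 0.139), but did without control replicate 1 (0.38, limma adjusted p = 0.0346) and with limma voom (0.29, adjusted p = 0.0416). RGMB, a partner of PD-L2, rose from 8.93 ± 0.415 to 11.7 ± 0.503 FPKM (0.37 ± 0.063, limma adjusted p = 0.0017). PDCD1, which encodes PD-1, was listed at 0 in every library. TIGIT and HAVCR2, which encodes TIM-3, were above 0 only in control replicate 2, at 0.0199 and 0.0650 FPKM. Of 15 leukocyte markers 6 were at 0 in every library, CD3D, NKG7 and TYROBP among them, and PTPRC, the pan-leukocyte marker, was above 0 only in control replicate 1, at 0.0231 FPKM. The summed level of that list was 3.34 to 4.72 FPKM in control and 4.62 to 5.01 FPKM in IFN-beta libraries. CD14, the most abundant of them, did not pass, and ITGAM rose by 0.54 (limma adjusted p = 0.0322) but did not pass in 6 of 16 alternatives. Markers of fibroblasts, endothelial cells and melanocytes summed to 3.79 to 4.77 and 6.10 to 7.30 FPKM, with DCN, MLANA and TYR at 0 in every library. On that list CDH5 rose by 1.01 on the log2 scale, and COL1A1 rose by 0.48 but did not pass in 7 of 17 alternatives. The part of these markers in the results above was not tested.

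**Figure D4:**
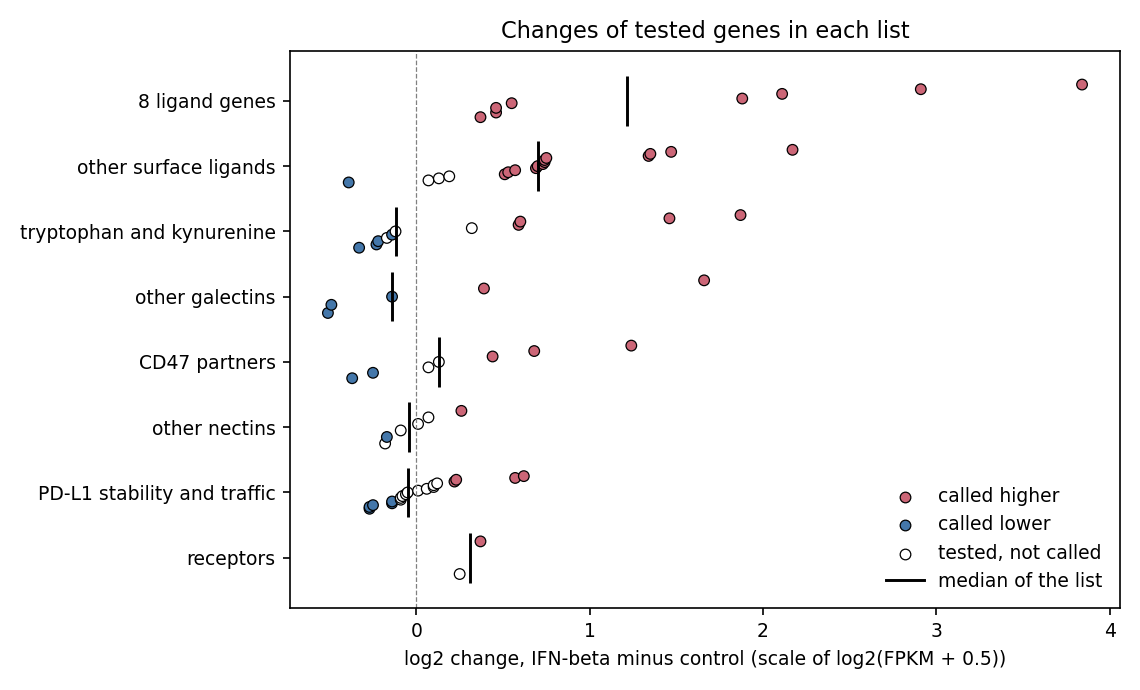
Log2 change with IFN-beta (horizontal axis) of each tested gene in the 8 ligand genes and in the lists around them, filled red where called higher, blue where called lower and white where not called, with a bar at each list's median. The 8 ligand genes have a median of 1.21 and the other surface ligands one of 0.70. The medians of the remaining lists lie between -0.14 and 0.31 and that of all genes tested is 0.01. All medians are over genes that passed the filter on level, which IDO1, PDCD1LG2 and TNFSF18 did only through the treated libraries.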

How the data were processed

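RNA from 6 HaCaT libraries was sequenced, 3 per group, with groups and replicate numbers taken from the sample titles. The authors deposited FPKM for 60671 genes. The labels' protocol lists CLC Genomics Workbench 11.0.1 without a step, and TRIzol and an RNeasy kit for the extraction. The sources used here give no aligner, counting method or strand. The builds named were, per the submitters' processing notes, GRCm38 and mm10 (mouse), but all 60671 identifiers are human, and 76.89% of the 58453 held by GENCODE release 29 (GRCh38) have its coordinates, so the human build is inferred. Whole reads were recovered from the FPKM steps within 0.01 reads for 30506 of 30507 genes above 0. Where the annotated length left no whole reads, the smallest length that did was taken, so counts of single genes may be a fraction of the true ones.

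Tests used limma 3.58.1 (R 4.3.3, trend, two-sided) on FPKM plus 0.5, log2 transformed, over 15163 genes with a mean of at least 0.5 FPKM, with Benjamini-Hochberg adjustment. The fit was tested on simulated data. Alternatives tried were a pseudocount of 0.1 or 1, no filter, a mean of at least 2 FPKM, rescaling to the same sum, quantile normalization, size factors, eBayes without trend or robust, the replicate block, each library left out, limma voom on the recovered reads, and LGALS9 summed with its copies. Named are the 8 genes, up to 4 called and 2 uncalled genes per list, nearest profiles and neighbours, and, chosen after their values were seen, IDO2, TDO2, CD24, CD40, CD70, TNFSF9, TNFRSF14, CD80, CD86, ERMP1, JAK2, AL162253.2, PDCD1, TIGIT, HAVCR2 and PTPRC. The genes and lists were chosen with earlier results of these data known.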

Additional observations from a re-analysis of the deposited data

How the results depend on the processing

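The rise of each of the 8 genes kept its direction and its call in every alternative in which the gene was tested, 17 for most genes, 18 for LGALS9 and 16 for PDCD1LG2, which a minimum mean of 2 FPKM removed. The number of the 8 genes called was 8 when any single library was left out. Across alternatives the log2 change ran from 1.91 to 2.36 for CD274, 1.43 to 2.89 for PDCD1LG2, 3.27 to 4.85 for IDO1, 2.83 to 2.99 for LGALS9, 0.33 to 0.41 for CD276, 0.41 to 0.50 for CD47, 0.42 to 0.51 for PVR and 0.47 to 0.60 for NECTIN2. For PDCD1LG2 and IDO1 the lowest value came with a pseudocount of 1 and the highest with limma voom. Leaving out 1 library at a time gave 5166 to 6162 calls over all genes, against 6431 with all 6 libraries. In the lists around the 8 genes it gave 35 to 42 calls, against 44 of 67 tested (65.7%, where all genes tested had 42.4%). Equal replicate numbers did not pair the libraries (correlations of their deviations -0.052, -0.098 and -0.058 for numbers 1 to 3), and a fit with a replicate block called 5817 genes, among them 8 of the 8 genes and 42 of the listed ones. Depth limits the control levels of IDO1 (10 to 15 reads) and PDCD1LG2 (22 to 27 reads).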
